A study of Mus musculus with 90 samples.

Results

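The tumour suppressor p53 is a transcription factor that cells keep low while they are undisturbed and stabilise when DNA is damaged or when nucleolar, oncogenic or metabolic stress arises. It then binds pairs of a short, palindromic element near its targets and raises genes that halt the cell cycle, repair DNA, adjust metabolism or kill the cell, and also Mdm2, whose product drives p53 to degradation. Many of these targets also answer to other signals, among them growth factors, calcium, immediate early transcription and, in skeletal muscle, differentiation, so their RNA is not a readout of p53 alone. The 10 genes described here are Cdkn1a, Btg2, Ccng1, Plk2, Mdm2, Bbc3, Zmat3, Trp53inp1, Gdf15 and Sesn1, all known p53 targets, which were taken by symbol from the 55011 symbols of the count table. All 10 were found, and no threshold on a measured value was used.

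Counts came from 90 mouse libraries in 29 groups. In 44 libraries, each holding 1000 cells, the material was muscle mesenchymal stromal cells (MmSCs), sorted from hindlimb as carrying PDGFRa and Sca1 but neither CD31, CD45 nor the dead-cell dye DAPI. The remaining 46 were whole tissue. A group had 3 libraries unless another number is given. Acutely exercised mice (AEX, day 1 after exercise) and exercise-trained mice (EXT) were titled WT and each had sedentary (SED) controls of its own, all aged 8 to 10 weeks. Cultured MmSCs received 25 uM Yoda1, an agonist of the mechanically gated channel Piezo1. One such cohort, labelled positive for Pdgfra-Cre with intact Piezo1, had 2 libraries at 2 h and 3 of vehicle at 0 h. Another, with no genotype in its labels, had Yoda1 at 4 h and 6 h and a vehicle titled Unstim. All remaining mice carried Pdgfra-Cre, a recombinase driven from the Pdgfra gene, with floxed Piezo1 (FL, titled KO in the injured muscle) or with intact Piezo1 (WT), so control mice carried the Cre too. Their MmSCs were sedentary, exercised (AEX) or taken at day 1 after cardiotoxin (CTX), a myotoxin of cobra venom used to injure muscle. Tibialis anterior (TA) muscle of KO and WT mice was taken at days 1 (4 libraries each), 3 and 7 after CTX. Quadriceps, heart and, with 4 libraries per genotype, liver came from uninjured FL and WT mice, and hearts of both genotypes also from day 3 after CTX in skeletal muscle. No label states that replicates are separate animals, and each p-value therefore reflects only how far these samples scatter.

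In the mouse genome (mm10, GENCODE M21), the genes tied to cell cycle control lie at chr17:29090976-29100727 (Cdkn1a), chr1:134075170-134079120 (Btg2), chr11:40748552-40755311 (Ccng1) and chr13:110395046-110400844 (Plk2). Mdm2 lies at chr10:117688875-117710758 and Bbc3, the apoptosis gene, at chr7:16308393-16318205. The remaining members lie at chr3:32334792-32366014 (Zmat3), chr4:11156431-11174379 (Trp53inp1), chr8:70629393-70632456 (Gdf15) and chr10:41809935-41908424 (Sesn1).

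Promoter sequences are given first, since each p53 element is built from a pair of copies of a 10-base unit, here called the p53 decamer. The RefSeq promoter table (GRCm38.p6) held 13 promoters of 8 of the 10 genes, and the 250 bases before each start were searched on both strands for exact matches to it. Matches lay in 4 of the 13 promoters, of Cdkn1a, Mdm2, Ccng1 and Sesn1, and 7.13% of all 32851 promoters of the table held one. These 4 promoters are printed 5′ to 3′ on the gene's own strand, with the decamers in capitals. Cdkn1a, upstream start (chr17:29090729-29090978, plus strand), Mdm2 (chr10:117710759-117711008, minus strand), Ccng1 (chr11:40755287-40755536, minus strand) and Sesn1, downstream start (chr10:41887189-41887438, plus strand):
Cdkn1a: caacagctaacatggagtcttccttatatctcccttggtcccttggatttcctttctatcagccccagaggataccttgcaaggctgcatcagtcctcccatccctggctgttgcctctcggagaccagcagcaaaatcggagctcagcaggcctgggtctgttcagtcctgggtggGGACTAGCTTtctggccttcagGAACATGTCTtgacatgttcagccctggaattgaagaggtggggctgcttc
Mdm2: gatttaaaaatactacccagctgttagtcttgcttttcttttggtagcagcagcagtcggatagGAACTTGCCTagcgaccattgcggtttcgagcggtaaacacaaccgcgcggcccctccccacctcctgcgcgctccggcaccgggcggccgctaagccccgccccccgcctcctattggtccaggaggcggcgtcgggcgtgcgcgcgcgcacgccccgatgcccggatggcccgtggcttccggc
Ccng1: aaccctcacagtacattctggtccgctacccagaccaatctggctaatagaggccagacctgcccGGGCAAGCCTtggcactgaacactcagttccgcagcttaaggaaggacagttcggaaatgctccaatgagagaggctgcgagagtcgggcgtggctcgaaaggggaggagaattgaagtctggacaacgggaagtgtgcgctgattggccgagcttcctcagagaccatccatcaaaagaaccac
Sesn1: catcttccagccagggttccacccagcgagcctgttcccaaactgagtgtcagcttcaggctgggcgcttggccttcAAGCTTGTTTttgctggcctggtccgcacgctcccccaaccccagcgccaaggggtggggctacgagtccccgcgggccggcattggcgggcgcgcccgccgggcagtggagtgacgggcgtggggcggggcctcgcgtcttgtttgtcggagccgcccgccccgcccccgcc

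The Cdkn1a promoter held the exact decamers GGACTAGCTT, starting 73 bases before the start, and GAACATGTCT, starting 51 bases before it. These do not adjoin, as tctggccttcag lies between them. Directly after GAACATGTCT came tgacatgttc, which departs from the decamer only in its opening base. It was not marked, since only exact matches were searched, and which copies form an element was not examined. Mdm2 held GAACTTGCCT 186 bases, Ccng1 GGGCAAGCCT 185 bases and Sesn1 AAGCTTGTTT 173 bases before the start. Of 4 other motifs searched on both strands, TGACGTCA, the full cyclic AMP response element, lay in the promoters of Plk2 (62 bases before the start) and Btg2 (166 bases before) and in 1.55% of all promoters. CACGTG, an E-box, lay in 1 promoter each of Gdf15 and Bbc3 and in 6.02% of all. TGANTCA, the AP-1 element, and TGATGNAA, bound by ATF4 with C/EBP factors, were in 0 of the 13 and in 6.75% and 3.45% of all. A match is a string of letters and not a bound site, and elements outside these windows were not looked for.

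Library totals spanned 1806248 to 10258234 counts (MmSCs), 4051973 to 10226407 (muscle) and 27461930 to 38376123 (heart, liver). The shallowest libraries were Yoda1 2 h replicate 2 (1806248) among MmSCs and KO day 3 replicate 1 (4051973) among muscles. In all 44 MmSC libraries the 8 stromal markers summed to between 28540 and 131741 CPM, whereas 6 immune markers summed to at most 30.9 and 6 myofibre markers to at most 85.4 CPM. Sedentary WT replicate c of the Pdgfra-Cre cohort had the highest stromal sum, and red cell markers reached 787.6 CPM in that group. Piezo1 was not called lower in any of the FL or KO groups against WT: its log2 change lay between -0.29 and 0.54 in 10 comparisons, with a smallest adjusted p of 0.190 (edgeR). A gene-level count is blind to which exons were removed, and in whole tissue only cells in which the Pdgfra driver has been active can lose Piezo1, so FL and KO stand for the labels. Replicates 1 and 2 of both AEX-cohort groups held no Y-linked reads while replicate 3 did, and heart FL day 3 replicate 1 had 55.5 CPM of Y-linked reads against 137 to 160.2 CPM in the other 11 hearts.

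Expression is given as CPM, depth-normalised counts with TMM scaling within each cohort, and levels of different genes are compared as CPM per kilobase of exon. In sorted MmSCs at rest (Pdgfra-Cre WT, SED), Cdkn1a, which encodes the cyclin-dependent kinase inhibitor p21, was the highest of the 10 genes at 93.2 CPM per kilobase. Btg2, an antiproliferative adaptor of mRNA deadenylation, followed at 26.7, the Polo-like kinase Plk2 at 20.9 and Mdm2, the ubiquitin ligase of p53, at 18.5 CPM per kilobase. Zmat3, a zinc finger RNA-binding protein, Trp53inp1, a nuclear and autophagy protein, and Bbc3, the apoptotic BH3-only protein Puma, were lowest at 1.49, 1.201 and 0.795 CPM per kilobase. In the sedentary controls of AEX the order differed, with Btg2 at 30.6 and Cdkn1a at 19.5 CPM per kilobase. WT quadriceps had another order: Ccng1, encoding cyclin G1, which binds the phosphatase PP2A, stood at 366 CPM per kilobase, with Mdm2 next at 14.8 and Cdkn1a at 4.64. In WT heart Ccng1 (315 CPM per kilobase) and Sesn1, a sestrin that restrains mTORC1 signalling (52.1), were the highest, and in WT liver Ccng1 (10.0) and Mdm2 (5.7).

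Ccng1 had the highest group mean of any member, 1284 CPM in WT quadriceps, and its lowest was 29.2 CPM in MmSCs at 2 h of Yoda1. Down the order of its group means came WT quadriceps (1284 ± 41.5 CPM), FL quadriceps (1239 ± 13.3), WT TA at day 7 (1235 ± 185), uninjured FL heart (1115 ± 16.5) and KO TA at day 7 (1114 ± 166), neighbours that lay within each other's spread. Uninjured WT heart (1107 ± 77.6), WT heart at day 3 (1073 ± 105) and FL heart at day 3 (935 ± 267) came next and overlapped too. Lower still were the TA at day 1 (638 ± 115 in KO and 538 ± 50.2 in WT) and day 3 (191 ± 36.8 in KO and 408 ± 74.0 in WT), and all 15 MmSC groups and both liver groups had means of 109 CPM or less. Cdkn1a ran from 10.1 ± 2.83 CPM in FL liver and 16.5 ± 0.756 in WT quadriceps to 391 ± 176 in KO TA at day 3, 445 ± 81.9 in sedentary FL MmSCs and 449 ± 42.5 in MmSCs at 2 h of Yoda1, and the spreads of these highest groups overlapped. In bulk libraries, fewer cells of a type and less RNA per cell cannot be told apart, and levels of different cohorts were scaled separately and are set side by side only.

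The highest group means of the other genes were 711 CPM for Plk2 (WT MmSCs after CTX), 274 for Mdm2, 62.1 for Zmat3 and 28.7 for Trp53inp1 (each at 6 h of Yoda1). For Sesn1 this was 222 CPM (FL heart at day 3), for Btg2 216 (sedentary controls of EXT) and for Gdf15, a secreted stress cytokine of the TGF-beta superfamily, 22.7 (2 h of Yoda1). Bbc3 never exceeded a group mean of 4.26 CPM. Gdf15 had 0 counts in all 6 quadriceps libraries, where a count of 0 allows up to 0.390 to 0.446 CPM per library (3 counts, counting error only). The sedentary MmSCs of different cohorts differed for some of the genes: Cdkn1a had 71.0, 64.1 and 73.0 CPM in the controls of AEX, 384, 327 and 282 CPM in the controls of EXT and 445, 321 and 227 CPM in Pdgfra-Cre WT. Such differences between cohorts were not tested.

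A gene was called where edgeR's quasi-likelihood test, run over all genes of a cohort, gave a Benjamini-Hochberg adjusted p under 0.05. Over 26 comparisons between groups, Plk2 was called 7 times higher and 4 times lower, Ccng1 5 and 4 times, Mdm2 4 and 2, Cdkn1a 3 and 3, and Sesn1 2 and 4 times. Btg2 was called 1 time higher and 3 times lower, Gdf15 2 and 1, Trp53inp1 1 and 2, and Zmat3 2 times higher and 0 lower. Bbc3 was tested in 19 comparisons and called in 0 of them, and its largest library held 173 counts. It fell under the filter on low counts in the EXT, Yoda1, MmSC CTX between genotypes and quadriceps comparisons, and Gdf15 did so in the AEX, EXT and quadriceps comparisons. The comparisons share libraries within a cohort and are therefore not independent.

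**Figure D1:**
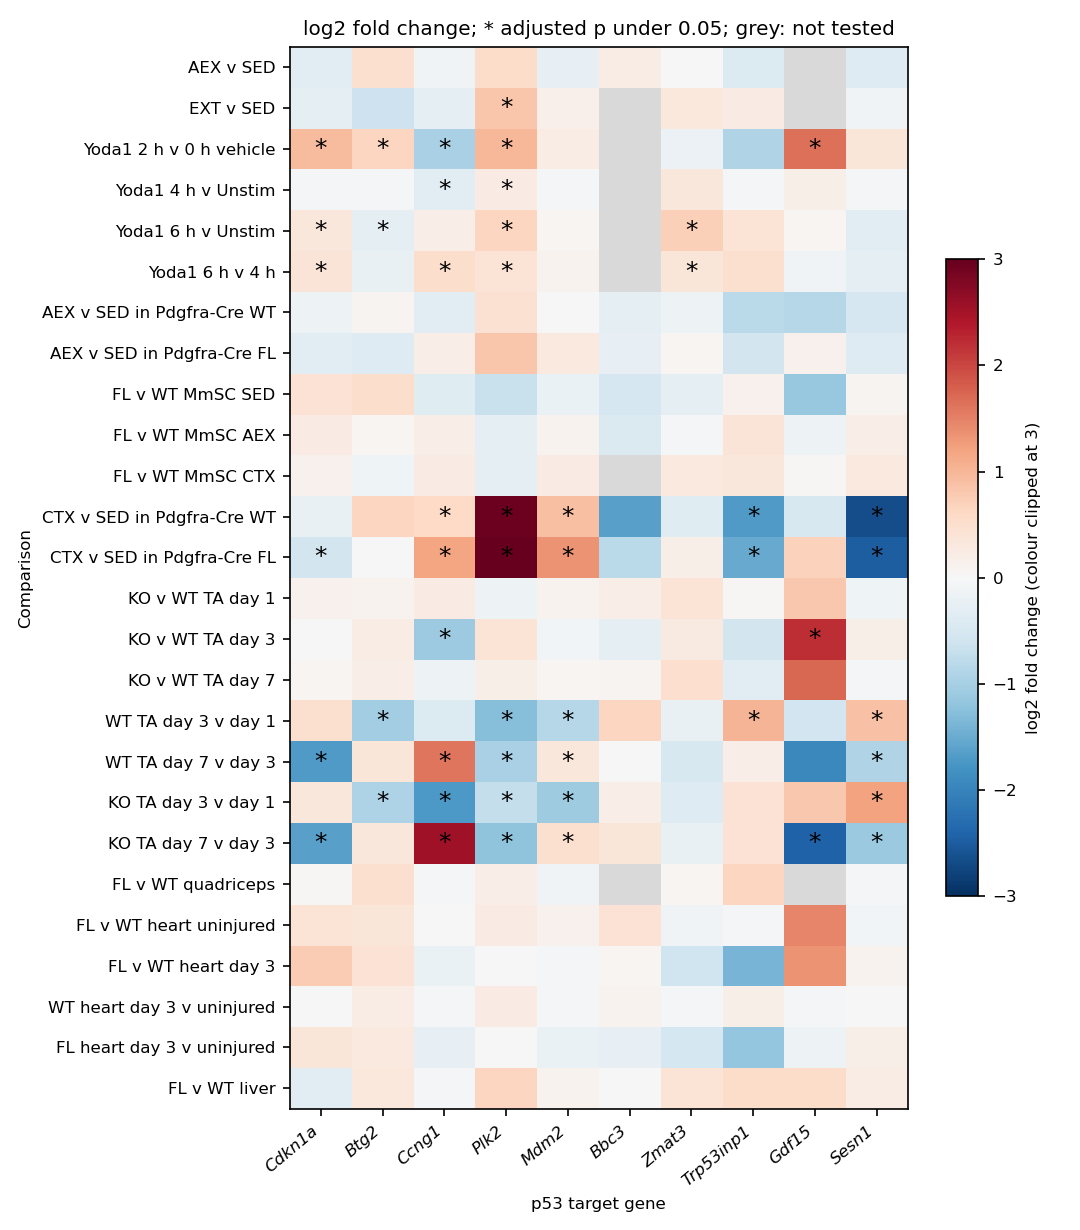
Heat map of the log2 fold change (first-named group over second) of the 10 p53 target genes, in columns, for 26 comparisons, in rows, with asterisks where edgeR's adjusted p was under 0.05 and grey where the gene was not tested. Asterisks gather in the Yoda1, cardiotoxin against sedentary MmSC and TA day comparisons, and mixed colours stand within most of these rows. Of all genes, 5.71% to 52.7% were called in these rows, against at most 8.98% in the others.

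The first comparison set 2 h of Yoda1 against vehicle at 0 h, so the agonist and the time in culture cannot be told apart. At 2 h, 4 of the 9 members tested rose, among them Cdkn1a and Plk2 by a log2 of almost 1, and Ccng1 fell. Of all 12782 genes tested, 5.3% rose and 5.94% fell. The median log2 change was 0.37 over the 9 members and -0.03 over all genes.

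Cdkn1a, the brake on cyclin-dependent kinases, had 419 and 479 CPM at 2 h of Yoda1, against 209, 248 and 243 CPM in vehicle. Both treated libraries lay above every vehicle library (log2 0.95 ± 0.15 SE, adjusted p = 0.00362, edgeR). Plk2, a kinase of the early response to serum and of centriole duplication, had 624 and 607 CPM at 2 h, against 302, 359 and 264 CPM in vehicle. It also rose without overlap (log2 1.00 ± 0.16 SE, adjusted p = 0.00362). Btg2, which slows proliferation, had 122 and 111 CPM at 2 h, against 74.2, 83.1 and 68.8 CPM in vehicle (log2 0.63 ± 0.18 SE, adjusted p = 0.0499). Gdf15 had 22.5 and 22.9 CPM at 2 h, against 4.53, 11.0 and 6.09 CPM in vehicle, from 73 and 43 counts against 21, 60 and 29 counts. The Gdf15 libraries did not overlap (log2 1.65 ± 0.47 SE, adjusted p = 0.0459). Cyclin G1 went the other way: Ccng1 had 31.8 and 26.6 CPM at 2 h, against 53.3, 71.0 and 48.1 CPM in vehicle (log2 -0.97 ± 0.27 SE, adjusted p = 0.0443).

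Mdm2, the feedback gene, was not called at 2 h (309.6 and 219.8 CPM with Yoda1, against 208, 265 and 208 CPM in vehicle). Its log2 change was 0.23, with a 95% interval of -0.19 to 0.64. Zmat3, Trp53inp1 and Sesn1 were not called either (log2 -0.17, -0.90 and 0.37). Bbc3 was not tested. Trp53, the p53 gene itself, had 261 and 156 CPM at 2 h, against 173, 200.4 and 189 CPM in vehicle, and was not called (adjusted p = 0.681), whereas Piezo1 was lower (30.8 and 22.4 CPM, against 127, 94.4 and 123 CPM, log2 -2.09 ± 0.25 SE, adjusted p = 0.00102). In the other Yoda1 cohort, Piezo1 was not called by edgeR at 4 h (log2 0.051, adjusted p = 0.823) or at 6 h (log2 0.13, adjusted p = 0.368). Of 42 other p53 pathway genes tested at 2 h, from a list of 51 regulators, arrest and repair, apoptosis and metabolic genes, 1 rose and 1 fell. Among all genes, 5.3% rose and 5.94% fell. Btg1, a relative of Btg2, rose (log2 0.85, adjusted p = 0.0175), and Trp53inp2, the autophagy relative of Trp53inp1, fell (log2 -1.06, adjusted p = 0.00924). Cell cycle markers summed to 13.3 to 23.4 CPM at 2 h, against 13.8 to 17.4 CPM in vehicle.

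Of the 5 calls, 3 ended when 1 library was left out. Cdkn1a stayed called under every alternative, and Plk2 under all but the replicate block (log2 0.90, adjusted p = 0.0502), whereas Ccng1 lost its call without vehicle replicate 1, 2 or 3 (log2 -1.08 to -0.78, adjusted p = 0.0974 to 0.168), as did Gdf15 (log2 1.41 to 2.10, adjusted p = 0.0522 to 0.183), and Btg2 without those or without Yoda1 replicate 1 (log2 0.53 to 0.72, adjusted p = 0.0859 to 0.183), and also with no filter on low counts (log2 0.53, adjusted p = 0.228). With the replicate block these 3 lost their calls too (adjusted p = 0.126 for Ccng1, 0.194 for Gdf15 and 0.333 for Btg2). Without the shallow Yoda1 replicate 2, the same number of members, 5, was called, from a single treated library that is assumed to vary like the vehicle libraries.

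In the other cohort the same agonist was followed to 4 h and 6 h, and both times share the vehicle libraries titled Unstim. The Unstim labels give no time, so here too the agonist and the time in culture cannot be told apart. The same holds for 6 h against 4 h, which has no vehicle of its own. Plk2 was higher at both times. Zmat3 and Cdkn1a were called higher at 6 h, Ccng1 was lower at 4 h, and Btg2 was marginally lower at 6 h. At 4 h, 1 of 9 members tested was called higher and 1 lower (3.58% and 2.12% of 13756 genes). At 6 h, 3 were called higher and 1 lower (6.53% and 6.72% of all genes). The members' median log2 change was -0.045 at 4 h and 0.20 at 6 h, beside -0.0035 and -0.0012 over all genes.

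Plk2 had 403, 443 and 417 CPM in vehicle, 500.3, 496 and 499 CPM at 4 h and 586, 689.8 and 704 CPM at 6 h. Its libraries overlapped between none of the 3 groups, and it rose against vehicle at 4 h (log2 0.24 ± 0.059 SE, adjusted p = 0.00911) and at 6 h (log2 0.65 ± 0.059 SE, adjusted p = 5.96e-10). Zmat3, whose protein binds RNA and acts on splicing, had 36.2, 35.8 and 40.8 CPM in vehicle, 45.01, 48.3 and 50.8 CPM at 4 h and 56.5, 70.2 and 59.6 CPM at 6 h. It was above vehicle in all 3 libraries at each time, but was called only at 6 h (log2 0.72 ± 0.11 SE, adjusted p = 1.68e-05, against adjusted p = 0.0677 at 4 h). Cdkn1a had 224, 206 and 217 CPM in vehicle, 207, 207 and 213 CPM at 4 h and 274, 285 and 263 CPM at 6 h. Vehicle and 4 h overlapped (log2 -0.045), and 6 h lay above both (log2 0.34 ± 0.06 SE, adjusted p = 8.00e-05).

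Ccng1 had 91.7, 90.4 and 103 CPM in vehicle, 78.5, 70.2 and 79.0 CPM at 4 h and 107, 110.0 and 109.7 CPM at 6 h. It fell at 4 h (log2 -0.32 ± 0.086 SE, adjusted p = 0.0187) and was not called at 6 h, where its libraries lay above vehicle (log2 0.20 ± 0.084 SE, adjusted p = 0.128). Btg2 had 91.1, 83.9 and 86.4 CPM in vehicle, 90.01, 77.7 and 85.5 CPM at 4 h and 68.0, 72.0 and 77.5 CPM at 6 h. It was called lower at 6 h (log2 -0.26 ± 0.091 SE, adjusted p = 0.0491). Mdm2 (261 ± 13.6 CPM in vehicle, 253 ± 16.4 at 4 h and 274 ± 9.98 at 6 h), Gdf15 (8.02 ± 3.71, 9.07 ± 3.05 and 8.39 ± 2.7), Trp53inp1 and Sesn1 were not called at either time. The 95% interval of the Mdm2 change at 6 h was log2 -0.056 to 0.20.

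Set directly against 4 h, the 6 h libraries were higher in 4 members and lower in 0 (5.25% of all genes rose and 5.7% fell). Ccng1 changed most (log2 0.52 ± 0.087 SE, adjusted p = 6.70e-05), followed by Plk2 (log2 0.40 ± 0.059 SE, adjusted p = 9.14e-06), Cdkn1a (log2 0.39 ± 0.061 SE, adjusted p = 2.55e-05) and Zmat3 (log2 0.37 ± 0.11 SE, adjusted p = 0.0292). Trp53 itself fell at 4 h (113, 118 and 118 CPM, against 158, 135 and 153 CPM in vehicle, log2 -0.35 ± 0.075 SE, adjusted p = 0.00248) and at 6 h (129.7, 122 and 131 CPM, log2 -0.22 ± 0.075 SE, adjusted p = 0.0424). Calls that ended without 1 library were Plk2 at 4 h (without Unstim replicate 1, log2 0.21, adjusted p = 0.0636), Ccng1 at 4 h (without 4 h replicate 2 or Unstim replicate 3, log2 -0.27 to -0.26, adjusted p = 0.103 to 0.112), Btg2 at 6 h (without 6 h replicate 1 or 2 or any Unstim library, log2 -0.29 to -0.22, adjusted p = 0.0651 to 0.203) and Zmat3 at 6 h against 4 h (without 4 h replicate 1 or 2 or 6 h replicate 2 or 3, log2 0.28 to 0.40, adjusted p = 0.0507 to 0.205). Btg2 at 6 h also lost its call with DESeq2 (log2 -0.26, adjusted p = 0.0595) with RLE scaling (log2 -0.26, adjusted p = 0.05002) and with the replicate block (log2 -0.26, adjusted p = 0.0550), and Plk2 at 4 h with no filter on low counts (log2 0.20, adjusted p = 0.122).

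Among 45 other pathway genes tested, 4 rose and 3 fell at 4 h, and 6 rose and 4 fell at 6 h. Over all genes, 3.58% rose and 2.12% fell at 4 h, and 6.53% and 6.72% did so at 6 h. Gadd45a, a stress sensor of DNA repair and growth arrest, rose at both times (log2 0.75, adjusted p = 0.00433 at 4 h and log2 0.66, adjusted p = 0.00589 at 6 h), as did Ddit4, an mTORC1 inhibitor (log2 0.76, adjusted p = 0.0284 and log2 1.24, adjusted p = 5.54e-05). Steap3, an iron reductase, fell at both (log2 -0.25, adjusted p = 0.0262 and log2 -0.72, adjusted p = 4.37e-09). At 4 h the phosphatase Ppm1d, which switches off the DNA damage response, and the checkpoint kinase Chek1 rose (log2 1.22 and 0.69), and the adenylate kinase Ak1 fell (log2 -0.39). At 6 h the death effectors Bax (log2 0.40, adjusted p = 0.00836) and Apaf1 (log2 0.54), the ubiquitin ligase Rchy1 (log2 0.44) and the sestrin Sesn2 (log2 0.42) rose, while the death receptor Fas fell (log2 -0.76, adjusted p = 1.57e-06), with the cell cycle inhibitor Cdkn1b (log2 -0.57). Between 6 h and 4 h, the nuclease Aen and Bax rose (log2 0.33 and 0.49) and Fas and Steap3 fell (log2 -0.63 and -0.47).

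**Figure D2:**
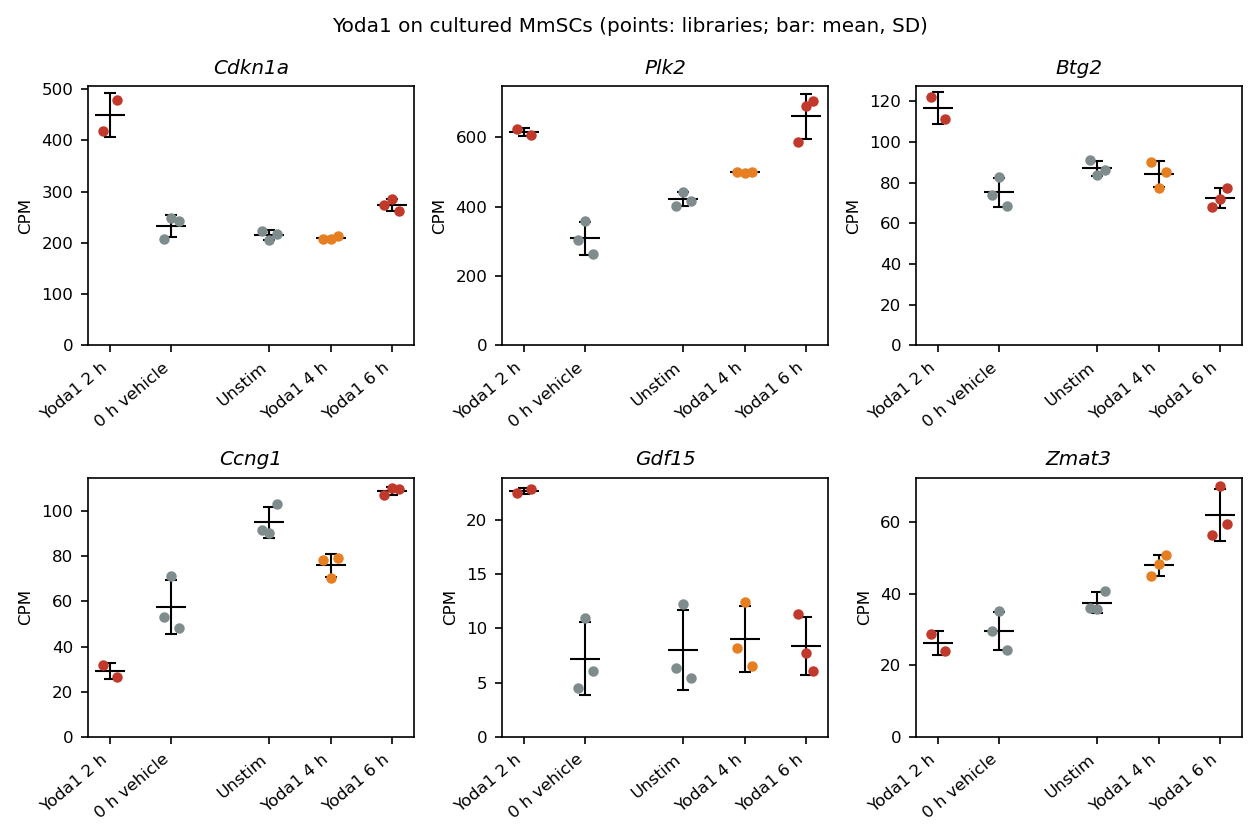
CPM of 6 p53 target genes in each library (points) of cultured MmSCs, with the mean and SD (bars), for Yoda1 2 h beside its 0 h vehicle and, separately, for the Unstim vehicle, Yoda1 4 h and Yoda1 6 h. Cdkn1a, Plk2, Btg2 and Gdf15 lie above vehicle and Ccng1 below it at 2 h, and Plk2 and Zmat3 step up from Unstim through 4 h to 6 h.

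Exercise training brought 1 call among the genes. Plk2 had 123, 149 and 121 CPM in MmSCs of EXT mice, against 66.8, 60.6 and 92.6 CPM in SED mice, and the libraries did not overlap (log2 0.83 ± 0.15 SE, adjusted p = 0.0287, edgeR). It was the only call among 8 members tested (0.281% of 12802 genes were called higher and 0.203% lower), and the members' median log2 change was 0.02, beside -0.011 over all genes. Btg2 was below every SED library in each EXT library (172, 103 and 149 CPM, against 252, 221 and 176 CPM), yet was not called (log2 -0.61 ± 0.18 SE, adjusted p = 0.182). Cdkn1a (252, 267 and 294 CPM in EXT, against 384, 327 and 282 CPM in SED) was not called either (adjusted p = 0.327). The Plk2 call ended without EXT replicate 1, 2 or 3 or SED replicate 1 or 2 (log2 0.71 to 0.89, adjusted p = 0.0603 to 0.147) and with the replicate block (log2 0.85, adjusted p = 0.0716). Of 44 other pathway genes tested, 0 were called by edgeR.

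One bout of exercise gave no call among the genes at day 1. In the WT-titled AEX cohort, 0 of 9 members tested were called, by edgeR as by DESeq2, while 0.736% of 12777 genes were. The members' median log2 change was -0.12, beside 0.0032 over all genes. The smallest unadjusted p-values belonged to Sesn1 and Btg2, both under 0.05. Sesn1 had 61.5, 39.4 and 61.9 CPM in AEX, against 71.7, 75.2 and 67.7 CPM in SED (log2 -0.40 ± 0.18 SE, adjusted p = 0.321). Btg2 had 86.1, 131 and 134 CPM in AEX, against 109.5, 69.5 and 72.7 CPM in SED, with overlap (log2 0.48 ± 0.21 SE, adjusted p = 0.325). Plk2 was higher in AEX replicates 2 and 3 but not in replicate 1 (29.6, 63.7 and 70.6 CPM in AEX, against 47.6, 28.0 and 36.2 CPM in SED).

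The Pdgfra-Cre cohort had exercise in both genotypes. In FL mice, 0 of 10 members were called (0.162% of 14821 genes, 0.0135% being lower), and in WT mice 0 of 10 (0.992% of all genes). Plk2 had 88.1, 89.1 and 135 CPM in exercised FL, against 50.7, 76.1 and 51.0 CPM in sedentary FL (log2 0.82 ± 0.30 SE, adjusted p = 0.473). In WT it had 157, 83.3 and 139 CPM after AEX, against 51.3, 126 and 104 CPM at rest (log2 0.45 ± 0.30 SE, adjusted p = 0.621). Sesn1 had the smallest p in WT (31.5, 39.8 and 24.9 CPM after AEX, against 49.1, 51.4 and 38.8 CPM at rest, log2 -0.51 ± 0.19 SE, adjusted p = 0.247) and the next smallest in FL (39.4, 33.1 and 39.1 CPM after AEX, against 50.5, 48.4 and 49.1 CPM at rest, log2 -0.39 ± 0.19 SE, adjusted p = 0.638). Its log2 value was thus negative in all 3 AEX comparisons, between -0.51 and -0.39, with no call in any. In WT the next smallest p was that of Ccng1 (log2 -0.35 ± 0.18 SE, adjusted p = 0.455). The interaction of exercise with genotype was called for 0 of 10 members and 0% of all genes, with the smallest p for Ccng1 (log2 0.55, adjusted p = 0.831) and Mdm2 (log2 0.30).

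As to genotype, no member was called different between FL and WT MmSCs by edgeR's test, at rest (0 of 10, 0.00675% of genes), after AEX (0 of 10, 0%) or at day 1 after CTX (0 of 9, 1.79%, of which 1.35% lower). At rest, Plk2 and Cdkn1a had the smallest p (log2 -0.67, adjusted p = 0.659 and log2 0.43, adjusted p = 0.687). After AEX these were Cdkn1a and Ccng1 (log2 0.24 and 0.20, both with unadjusted p above 0.05). After CTX they were Plk2 and Mdm2. Plk2 had 619, 580.3 and 547 CPM in FL, against 764, 761 and 607 CPM in WT (log2 -0.28 ± 0.083 SE, adjusted p = 0.113). Mdm2 had 185, 198.9 and 238 CPM in FL, against 161, 182 and 185 CPM in WT (log2 0.24 ± 0.10 SE, adjusted p = 0.278). Members with an unadjusted p under 0.05 numbered 1, 0 and 3 in these comparisons, beside 1094 and 814 of 14821 genes and 1761 of 12957 genes. Plk2 was called lower after CTX where low counts were not filtered. Of 44 other pathway genes tested after CTX, 1 rose in FL, the DNA-dependent protein kinase gene Prkdc (log2 0.96, adjusted p = 0.0327), and 0 fell.

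Cardiotoxin moved the members in opposite directions in MmSCs. At day 1 after CTX, Plk2, Mdm2 and Ccng1 were higher and Sesn1 and Trp53inp1 lower than in sedentary MmSCs of the same genotype, in FL and in WT mice alike, and Cdkn1a was called lower in FL. In FL, 3 of 10 members were called higher and 3 lower (23.9% and 22.7% of 14712 genes), and in WT 3 higher and 2 lower (23.5% and 22.3%), shares near those of all genes. The median log2 change of the members was 0.089 in FL and -0.30 in WT, beside -0.071 and -0.10 over all genes. The design text names the sedentary mice as controls of AEX, and no label says that the injured mice were processed beside them, so injury and any difference in processing cannot be told apart.

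Plk2 had 619, 580.3 and 547 CPM after CTX, against 50.7, 76.1 and 51.0 CPM at rest in FL (log2 3.30 ± 0.26 SE, adjusted p = 1.07e-07). In WT it had 764, 761 and 607 CPM after CTX, against 51.3, 126 and 104 CPM at rest (log2 2.93 ± 0.26 SE, adjusted p = 3.04e-07). These were the highest Plk2 values of sorted MmSCs taken straight from muscle. Mdm2 had 185, 198.9 and 238 CPM after CTX, against 77.9, 85.0 and 84.0 CPM at rest in FL (log2 1.34 ± 0.14 SE, adjusted p = 1.25e-06), and 161, 182 and 185 CPM, against 77.5, 107 and 97.6 CPM in WT (log2 0.91 ± 0.14 SE, adjusted p = 6.16e-05). Ccng1 had 92.1, 109 and 102 CPM after CTX, against 41.8, 43.8 and 48.9 CPM at rest in FL (log2 1.18 ± 0.14 SE, adjusted p = 3.80e-06), and 74.5, 95.9 and 87.3 CPM, against 55.2, 54.3 and 62.1 CPM in WT (log2 0.59 ± 0.14 SE, adjusted p = 0.00221). All 3 genes were above rest in every injured library.

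Sesn1, which links nutrient and oxidative stress to mTORC1, was the member with the largest fall. It had 9.98, 10.5 and 6.09 CPM after CTX, against 50.5, 48.4 and 49.1 CPM at rest in FL (log2 -2.47 ± 0.21 SE, adjusted p = 9.89e-08), and 6.97, 6.67 and 8.13 CPM, against 49.1, 51.4 and 38.8 CPM in WT (log2 -2.67 ± 0.21 SE, adjusted p = 6.03e-08). Trp53inp1 had 3.23, 2.58 and 3.15 CPM after CTX, against 6.29, 6.16 and 13.0 CPM at rest in FL (log2 -1.500 ± 0.37 SE, adjusted p = 0.00307), and 2.79, 2.19 and 2.11 CPM, against 7.51, 10.0 and 5.81 CPM in WT (log2 -1.70 ± 0.38 SE, adjusted p = 0.00137). Cdkn1a was lower in FL (278, 292 and 342 CPM after CTX, against 379, 537 and 419.6 CPM at rest, log2 -0.54 ± 0.20 SE, adjusted p = 0.0318). In WT it overlapped (290.0, 273 and 279 CPM, against 445, 321 and 227 CPM, log2 -0.23 ± 0.20 SE, adjusted p = 0.351). Whether the change differed between genotypes was not tested. The Cdkn1a call in FL ended without CTX replicate 1 or 2 or SED replicate b (log2 -0.52 to -0.38, adjusted p = 0.0904 to 0.133).

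Cell cycle markers (6 of 6 detected) summed to 375 to 432 CPM after CTX, against 3.5 to 24.4 CPM at rest in FL, and to 569.8 to 767 CPM, against 5.36 to 149.7 CPM in WT. Their part in these changes was not tested. Trp53 was higher too (223 ± 13.9 CPM, against 124 ± 23.0 CPM in FL, log2 0.85 ± 0.15 SE, adjusted p = 0.000225, and 227 ± 16.5 CPM, against 102 ± 16.2 CPM in WT, log2 1.16 ± 0.15 SE, adjusted p = 1.23e-05). Of 47 other pathway genes tested, 13 rose and 9 fell in FL, and 14 rose and 13 fell in WT. Over all genes, 23.9% rose and 22.7% fell in FL, and 23.5% and 22.3% in WT. The checkpoint kinase Chek1, among the regulators, rose (log2 3.29, adjusted p = 7.31e-08 in FL and log2 2.63, adjusted p = 5.03e-07 in WT), as did Chek2 (log2 2.01 in FL and 1.32 in WT), while Mdm4, the partner of Mdm2 that masks p53, fell (log2 -0.54 in FL and -0.84 in WT). Of 12 apoptosis genes tested, 5 rose and 1 fell in FL, and 6 rose and 2 fell in WT. Bax rose (log2 1.67, adjusted p = 4.80e-07 in FL and log2 1.42, adjusted p = 2.70e-06 in WT), as did Pidd1 (log2 2.92 in FL and 2.15 in WT) and, called in WT, the autophagy gene Dram1 (log2 0.91), whereas Fas fell (log2 -1.07 in FL and -0.44 in WT) and the Akt inhibitor Phlda3 in WT (log2 -2.03).

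Of 13 arrest and repair genes tested, 5 fell and 1 rose in FL, beside 22.7% lower and 23.9% higher among all genes, and 6 fell and 1 rose in WT, beside 22.3% and 23.5%. The cell cycle inhibitor Cdkn1c fell to 0.566 ± 0.345 CPM after CTX, against 8.88 ± 1.86 CPM at rest in FL (log2 -3.92, adjusted p = 3.08e-05), and fell (log2 -3.60) in WT. Gadd45a fell in both (log2 -1.63 in FL and -1.85 in WT), and the nuclease Ercc5 in WT (log2 -0.77), while Btg1 rose in both (log2 0.67 in FL and 0.51 in WT). Of the metabolic genes, Ddit4 (log2 2.42 in FL and 1.501 in WT) and Ak1 (log2 0.67 and 1.26) rose, and Steap3 (log2 -1.25 and -1.15) and the sestrin Sesn3 (log2 -1.30 and -1.17) fell.

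**Figure D3:**
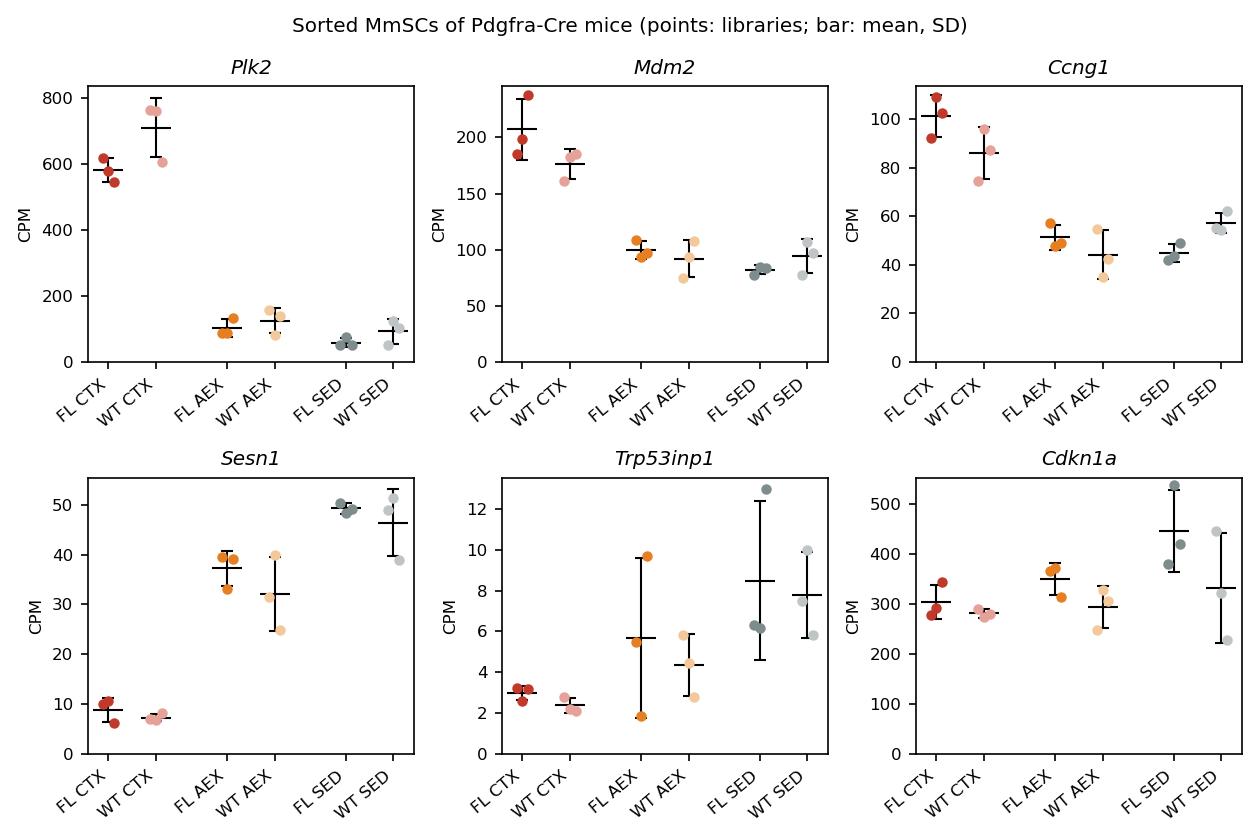
CPM of 6 p53 target genes in each MmSC library (points) of Pdgfra-Cre mice, with the mean and SD (bars), after cardiotoxin (CTX), after exercise (AEX) and at rest (SED), FL beside WT. Plk2, Mdm2 and Ccng1 stand highest after CTX, Sesn1 and Trp53inp1 lowest, and FL and WT overlap for each gene after CTX.

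In injured TA muscle, the question was whether the members differ between Piezo1 KO and WT mice during repair. At day 1, 0 of 10 members were called (0.0774% of 15499 genes), and at day 7 also 0 of 10 (0%). At day 3, Ccng1 was lower and Gdf15 higher in KO, 1 of 10 members in each direction (8.98% of genes were called, 6.37% lower and 2.61% higher). These shares came from a fit of all TA groups. In a fit of the day 3 libraries alone, 257 of 14170 genes were called, 239 lower and 18 higher, beside 1392 of 15499. The other 8 members were not called at day 3, and the median over all 10 was log2 0.085, beside -0.016 over all genes.

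Ccng1 had 149, 210.2 and 215 CPM in KO muscle at day 3, against 357, 374 and 493 CPM in WT muscle. The libraries did not overlap (log2 -1.09 ± 0.19 SE, adjusted p = 0.000624, edgeR). At day 1 it had 518, 570.2, 772 and 691 CPM in KO, against 587, 482, 510.4 and 573 CPM in WT (log2 0.25), and at day 7 1109.7, 1283 and 950.4 CPM in KO, against 1442, 1087 and 1176 CPM in WT (log2 -0.15), with overlap on both days. The joint test of genotype by day called Ccng1 alone among 10 members (3.89% of all genes), its genotype difference at day 3 being log2 -1.33 relative to that at day 1 (adjusted p = 0.00647, edgeR). The 6 myofibre markers (6 of 6 detected) summed to 4043 to 14403 CPM in KO, against 32465 to 53256 CPM in WT at day 3, to 69123 to 113365, against 73538 to 92094 CPM at day 1, and to 161587 to 214240.0, against 182223 to 214802 CPM at day 7. Their part in the Ccng1 difference was not tested. The 6 immune markers summed to 7466 to 8022 CPM in KO, against 6119.7 to 7857 CPM in WT at day 3, and the 6 cell cycle markers to 691 to 816 CPM, against 248 to 516 CPM.

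Across the 26 muscle libraries, Ccng1 and the myofibre marker sum were lowest in the same 3 libraries, those of KO at day 3. WT at day 3 came next in marker sum, and its Ccng1 overlapped that of day 1. Quadriceps, with marker sums of 158150.0 to 172092 CPM in FL and 163329 to 177908 CPM in WT, had 1254, 1229 and 1234 CPM of Ccng1 in FL and 1320.1, 1239 and 1292 CPM in WT. Sorted MmSCs had both at low levels, with at most 110.0 CPM of Ccng1. Hearts had marker sums of 8041 to 12131 CPM, within the range of KO TA at day 3, yet 627 to 1191 CPM of Ccng1.

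**Figure D4:**
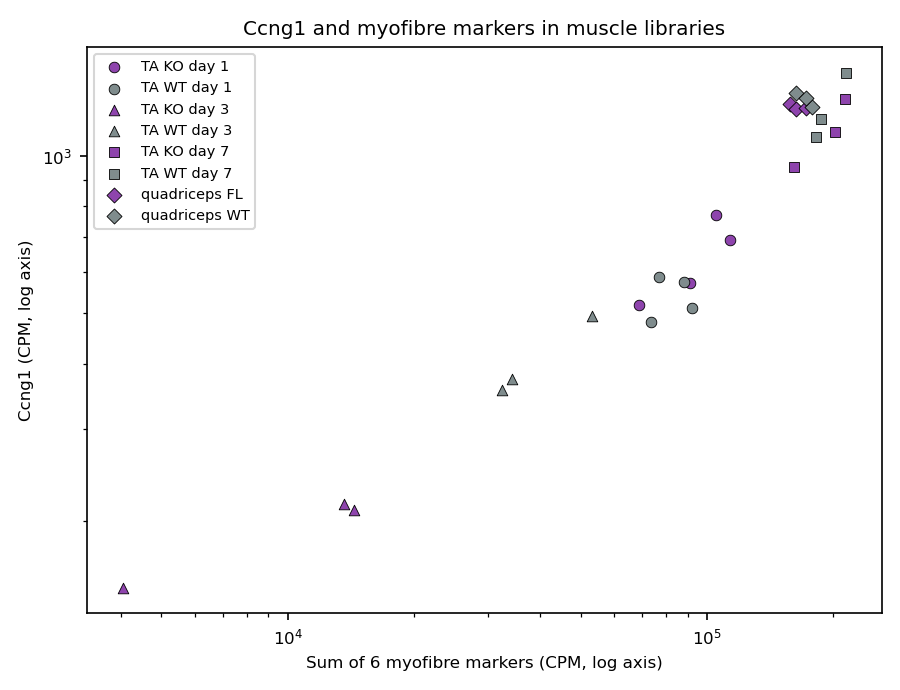
Ccng1 CPM against the summed CPM of 6 myofibre markers, both on log axes, in the 26 libraries of TA muscle after cardiotoxin and of uninjured quadriceps, 1 point per library. KO day 3 libraries lie at the lower left (149 to 215 CPM of Ccng1), WT day 3 next, and day 7 and quadriceps at the upper right.

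Gdf15 had 5.35, 10.1 and 2.04 CPM in KO muscle at day 3, against 2.53, 0.289 and 1.05 CPM in WT muscle, from 31, 131 and 21 counts against 21, 3 and 9 counts. KO replicate 2 was highest and the groups overlapped (log2 2.21 ± 0.64 SE, adjusted p = 0.0304). The call ended without KO replicate 1 or 2 or WT replicate 2 or 3 (log2 1.504 to 2.26, adjusted p = 0.0503 to 0.246), with the replicate block (log2 2.18, adjusted p = 0.0525) and in a fit of the day 3 libraries alone (log2 2.21, adjusted p = 0.145). Gdf15 had 0.697, 1.03 and 1.47 CPM in KO, against 0.34, 0 and 0.614 CPM in WT at day 7, from at most 10 counts a library, and was not called (log2 1.71 ± 0.91 SE, adjusted p = 1). Next to it at day 7 by p was Zmat3 (log2 0.51), and at day 1 the smallest p-values were those of Zmat3 and Ccng1 (log2 0.41 and 0.25, unadjusted p of 0.0867 and 0.140 by edgeR). Cdkn1a at day 3 was spread in KO (218, 569.7 and 386 CPM) and tight in WT (369.5, 400.3 and 407 CPM), with a log2 difference of -0.0016 and a 95% interval of -0.46 to 0.46.

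Of 48 other pathway genes tested at day 3, 1 rose and 6 fell in KO (2.61% and 6.37% of all genes). Lower were Trp53inp2 (86.5 ± 37.3 CPM in KO, against 254 ± 58.0 CPM in WT, log2 -1.55, adjusted p = 0.000260), Ak1 (log2 -1.65, adjusted p = 0.00367), Sesn3 (log2 -0.77, adjusted p = 0.0117), the p53 relative Trp63 (log2 -1.69, adjusted p = 0.00252), the p53 kinase Hipk2 (log2 -0.61, adjusted p = 0.00776) and the death receptor Eda2r (log2 -0.66, adjusted p = 0.0347). Chek1 was higher (log2 1.05, adjusted p = 0.0442). These calls came from the fit of all TA groups, and no fit of the day 3 libraries alone is given for them. The same test of genotype by day called Trp53inp2, Ak1, Sesn3 and Trp63 with a negative value and Chek1 with a positive one (log2 -1.66, -1.962, -0.94, -1.94 and 1.78). Trp53 was not called by edgeR's test at days 1, 3 or 7 (adjusted p = 0.993, 0.292 and 1).

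The days of repair brought more calls than genotype did. In both genotypes Mdm2, Btg2 and Plk2 were lower at day 3 than at day 1 while Sesn1 was higher. By day 7 Cdkn1a, Plk2 and Sesn1 were lower than at day 3, while Ccng1 and, on scaled values only, Mdm2 were higher. From day 1 to day 3, 1 member was called higher and 4 lower in KO (22% and 22.6% of genes), and 2 higher and 3 lower in WT (14.1% and 12.6%). From day 3 to day 7, 2 were higher and 4 lower in KO (25.8% and 27%), and 2 higher and 3 lower in WT (20.1% and 22.4%). In either direction, 44.6% of all genes were called for the first step in KO and 26.8% in WT, and 52.7% and 42.5% for the second (for the members, 5 of 10 in each genotype for the first step, and 6 in KO and 5 in WT for the second). Satellite cell and myoblast markers (6 of 6 detected) summed in KO to 132 to 162 CPM at day 1, 1028 to 1757 at day 3 and 277 to 315 at day 7, and in WT to 189.6 to 288, 1572 to 1722 and 216 to 302 CPM. Stromal markers (8 of 8) summed in KO to 3757 to 4754 CPM at day 1, 5883 to 12203 at day 3 and 14405 to 21373 at day 7, and in WT to 5088 to 5734, 11533 to 12815 and 11418 to 17492 CPM. Immune markers also moved with the days, summing in KO to 2277 to 3255 CPM at day 1, 7466 to 8022 at day 3 and 916 to 1485 at day 7 and in WT to 2519.9 to 3826, 6119.7 to 7857 and 804 to 1393 CPM, as did the myofibre markers given above, and their part in these steps was not tested.

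Cdkn1a in KO had 315, 322, 319.6 and 281 CPM at day 1, 218, 569.7 and 386 at day 3 and 109, 108 and 159 at day 7. In WT it had 276, 309, 268 and 271 CPM at day 1, 369.5, 400.3 and 407 at day 3 and 92.9, 130.2 and 139 at day 7. It fell between days 3 and 7 in KO (log2 -1.64 ± 0.23 SE, adjusted p = 1.95e-06) and in WT (log2 -1.70 ± 0.23 SE, adjusted p = 2.38e-06), and day 7 lay below day 3 in every library. Plk2 in KO had 219, 175, 175 and 111 CPM at day 1, 104, 122 and 86.1 at day 3 and 39.9, 43.2 and 51.9 at day 7. In WT it had 183, 208, 189 and 179 CPM at day 1, 81.4, 78.6 and 73.2 at day 3 and 34.5, 39.6 and 45.1 at day 7. It fell at each step, by day 3 (log2 -0.71 in KO and -1.29 in WT) and again by day 7 (log2 -1.21 and -0.97), with adjusted p from 5.12e-06 to 0.00146.

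Mdm2 was lowest at day 3 on the TMM-scaled values. In KO it had 167, 153, 177 and 150.1 CPM at day 1, 67.7, 90.9 and 74.2 at day 3 and 99.4, 114 and 115 at day 7, and in WT 145, 156, 145 and 153 CPM at day 1, 81.1, 79.1 and 88.8 at day 3 and 116, 94.7 and 106 at day 7. It fell to day 3 (log2 -1.06 ± 0.12 SE, adjusted p = 2.61e-07 in KO and log2 -0.85 ± 0.12 SE, adjusted p = 1.32e-05 in WT) and rose to day 7 (log2 0.49 ± 0.13 SE, adjusted p = 0.00276 in KO and log2 0.35 ± 0.13 SE, adjusted p = 0.0343 in WT). The direction of the rise rests on the scaling, with TMM factors of 0.702 to 0.831 at day 7, against 1.17 to 1.43 at day 3. RLE scaling and DESeq2 neither reversed the rise nor ended its call in either genotype. As an unscaled share of each library's counts, Mdm2 was lower at day 7 than at day 3 in both genotypes. Sesn1 peaked at day 3. In KO it had 53.2, 60.4, 45.2 and 67.3 CPM at day 1, 127, 135 and 125 at day 3 and 63.8, 53.4 and 62.8 at day 7, and in WT 75.4, 61.9, 60.7 and 50.7 CPM at day 1, 116, 122 and 107 at day 3 and 55.5, 65.9 and 62.5 at day 7. It rose to day 3 (log2 1.196 ± 0.14 SE, adjusted p = 2.50e-07 in KO and log2 0.88 ± 0.14 SE, adjusted p = 3.75e-05 in WT) and fell to day 7 (log2 -1.11 and -0.91), and day 3 stood above the other days in every library of both genotypes.

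Ccng1 fell to day 3 in KO (log2 -1.73 ± 0.18 SE, adjusted p = 5.65e-08) and was not called in WT (log2 -0.40 ± 0.18 SE, adjusted p = 0.0954), then rose to day 7 in KO (log2 2.54 ± 0.20 SE, adjusted p = 3.31e-10) and in WT (log2 1.60 ± 0.19 SE, adjusted p = 3.94e-07). Btg2 fell to day 3 in KO (log2 -0.92 ± 0.19 SE, adjusted p = 0.000453) and in WT (log2 -1.05 ± 0.20 SE, adjusted p = 0.000243), where it had 40.8, 39.9 and 38.7 CPM in KO and 30.0, 28.3 and 43.2 CPM in WT, against 99.3, 66.3, 80.5 and 54.4 CPM in KO and 57.1, 67.8, 64.5 and 91.7 CPM in WT at day 1. Trp53inp1 rose to day 3 in WT (18.9, 17.4 and 17.1 CPM, against 10.8, 4.37, 9.18 and 10.9 CPM at day 1, log2 1.02 ± 0.31 SE, adjusted p = 0.0151), and Gdf15 fell to day 7 in KO (log2 -2.43 ± 0.67 SE, adjusted p = 0.00374). Calls that ended without 1 library were Trp53inp1 in WT (without day 1 replicate 2, log2 0.79, adjusted p = 0.0544), Mdm2 at day 7 in WT (without day 3 replicate 1 or 2 or day 7 replicate 1 or 3, log2 0.27 to 0.35, adjusted p = 0.0737 to 0.147, and with no filter on low counts, log2 0.33, adjusted p = 0.210) and Gdf15 at day 7 in KO (without day 3 replicate 2, log2 -1.73, adjusted p = 0.0505). Bbc3 and Zmat3 were called on 0 of these steps.

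Other pathway genes moved over the days too. Of 48 tested, 10 rose and 12 fell from day 1 to day 3 in KO, and 9 and 8 in WT. Among all genes, 22% rose and 22.6% fell on this step in KO, and 14.1% and 12.6% in WT. From day 3 to day 7 there were 11 and 14 in KO and 7 and 14 in WT. The shares of all genes were then 25.8% and 27% in KO and 20.1% and 22.4% in WT. Cdkn1c rose to day 3 in both genotypes (log2 3.43 in KO and 2.72 in WT), with Psrc1, a mitotic spindle gene (log2 3.11 and 1.74), and the cyclin G1 relative Ccng2 (log2 1.51 and 1.72). Eda2r and Phlda3 fell to day 3 (log2 -1.60 and -2.46 in KO, -0.73 and -1.48 in WT), as did the glycolytic regulator Tigar (log2 -2.70 and -1.90). Bax fell to day 7 (24.1 ± 0.125 CPM, against 71.2 ± 12.4 CPM at day 3 in KO, log2 -1.56, and log2 -1.45 in WT). Trp53inp2 and Ak1 rose to day 7 (log2 3.85 and 3.74 in KO, 2.31 and 2.28 in WT), as did Trp63 (log2 3.31 and 1.49). Trp53 fell to day 7 in KO (log2 -1.07 ± 0.16 SE, adjusted p = 6.42e-06) and in WT (log2 -1.03 ± 0.16 SE, adjusted p = 2.01e-05), and its rise to day 3 was called in KO (log2 0.55 ± 0.15 SE, adjusted p = 0.00453).

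**Figure D5:**
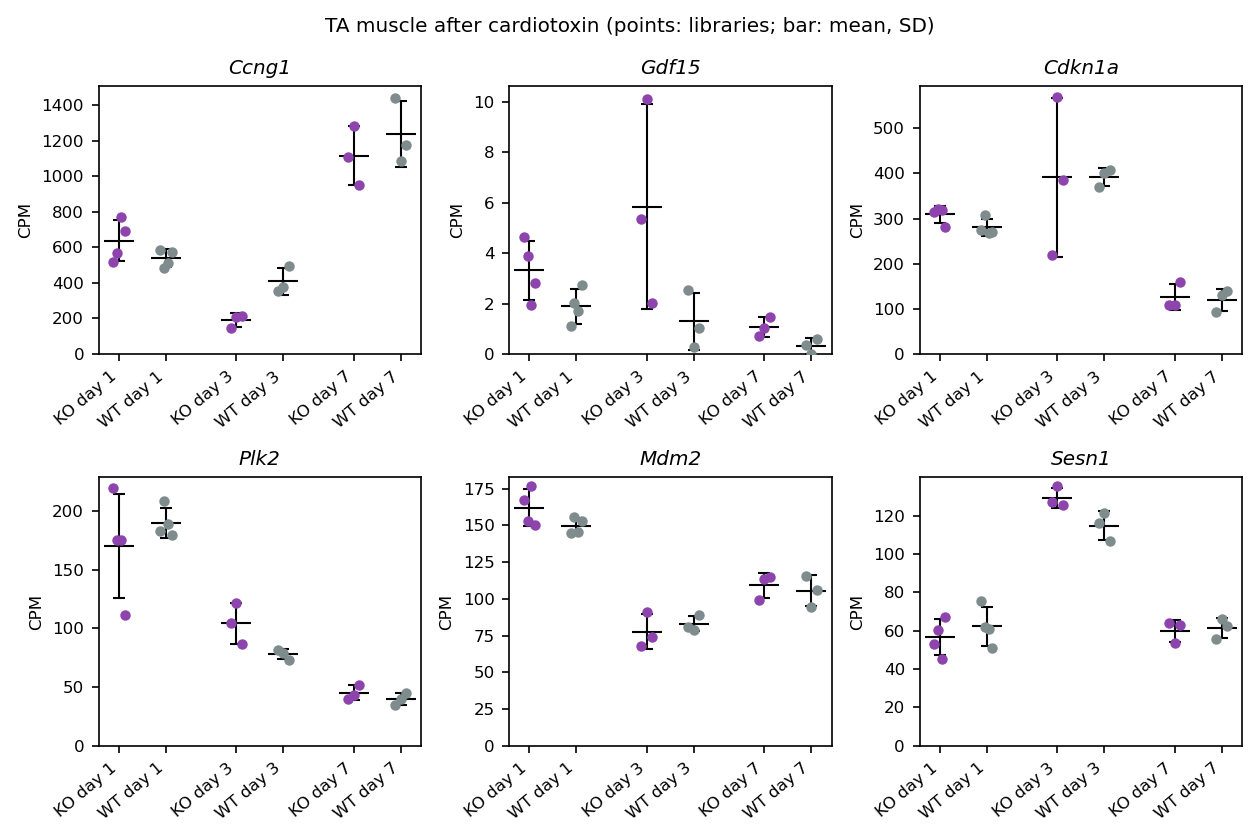
CPM of 6 p53 target genes in each TA muscle library (points) at days 1, 3 and 7 after cardiotoxin, KO beside WT, with the mean and SD (bars). Sesn1 peaks and Mdm2 dips at day 3 in both genotypes, Plk2 steps down, Cdkn1a is lowest at day 7, and Ccng1 separates KO from WT at day 3.

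No member was called in uninjured tissue. In quadriceps, 0 of 8 members tested were called (0% of 11856 genes). Btg2 had the smallest p (33.3, 26.9 and 25.7 CPM in FL, against 20.7, 21.1 and 19.7 CPM in WT, log2 0.48 ± 0.13 SE, adjusted p = 0.585, edgeR), with no overlap, and Trp53inp1 the next (13.2, 9.55 and 8.03 CPM in FL, against 6.91, 5.74 and 6.98 CPM in WT, log2 0.65 ± 0.21 SE, adjusted p = 0.758). In uninjured heart, 0 of 10 were called (0% of 18433 genes), with the smallest p for Btg2 (log2 0.36 ± 0.15 SE, adjusted p = 1) and Gdf15 (0.934, 0.773 and 2.74 CPM in FL, against 0.594, 0.297 and 0.719 CPM in WT, log2 1.46 ± 0.68 SE, adjusted p = 1). In liver, 0 of 10 were called (0% of 14534 genes). Plk2 had 37.1, 29.5, 31.1 and 23.2 CPM in FL livers, against 18.0, 19.3, 22.4 and 17.8 CPM in WT livers, without overlap (log2 0.64 ± 0.17 SE, adjusted p = 0.999), and Trp53inp1 came next by p (log2 0.56 ± 0.24 SE, adjusted p = 0.999). Members with an unadjusted p under 0.05 by edgeR numbered 2 in each of these 3 tissues, beside 771 of 11856 genes in quadriceps, 778 of 18433 in heart and 525 of 14534 in liver.

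In hearts taken at day 3 after skeletal muscle injury, 0 of 10 members were called between FL and WT (3.92% of 18433 genes), between FL at day 3 and uninjured FL (4.75%), or between WT at day 3 and uninjured WT (0.103%). These shares came from a fit of all 4 heart groups, and in a fit of only the groups compared 10 of 16735 genes were called between genotypes at day 3 and 4 of 16572 between FL hearts, beside 722 and 875 of 18433. The design text calls the uninjured mice separate cohorts, so injury and cohort cannot be told apart. Trp53inp1 came closest. It had 1.41, 6.33 and 6.32 CPM in FL at day 3, against 15.8, 11.1 and 10.3 CPM in WT at day 3 (log2 -1.40 ± 0.42 SE, adjusted p = 0.0667) and 14.9, 8.92 and 7.7 CPM in uninjured FL (log2 -1.16 ± 0.41 SE, adjusted p = 0.114). Its lowest library was FL day 3 replicate 1, which stood apart in Y-linked reads and also had the highest Cdkn1a (89.6, 32.8 and 49.6 CPM in the 3 FL hearts, against 35.9, 32.3 and 33.6 CPM in WT) and the lowest Ccng1 (627, 1096 and 1082 CPM, against 1191, 987 and 1041 CPM). Btg2 had the next smallest p between genotypes (log2 0.44 ± 0.15 SE, adjusted p = 0.107), Zmat3 between FL at day 3 and uninjured FL (log2 -0.52 ± 0.24 SE, adjusted p = 0.210), and Btg2 and Plk2 in WT hearts (log2 0.22 and 0.26). Without that FL library, 0 members were called between genotypes, and without FL day 3 replicate 2, 2 were, Cdkn1a and Btg2.

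Of 48 other pathway genes tested in heart at day 3, 0 rose and 1 fell in FL, the sestrin Sesn3 (log2 -0.92, adjusted p = 0.0297). Of all genes, 1.58% rose and 2.33% fell. Against uninjured FL hearts, 3 of the 48 rose and 1 fell, beside 2.05% and 2.7% of all genes. Ak1 (log2 0.33, adjusted p = 0.0342) and the apoptosis-linked membrane genes Perp (log2 0.34, adjusted p = 0.0388) and Ei24 (log2 0.94, adjusted p = 0.0252) rose in FL, and Prkdc fell (log2 -0.72, adjusted p = 0.0441). All these heart calls, Sesn3 included, came from the fit of all heart groups. Fits of only the groups compared called 10 of 16735 genes between genotypes and 4 of 16572 between FL hearts. Injury and cohort cannot be told apart between the FL hearts. Quadriceps, liver and uninjured heart gave 0 calls among the other pathway genes by edgeR.

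Trp53, which encodes p53 itself (chr11:69580359-69591873 in mm10), is controlled mostly at the protein level, which was not measured here. Its RNA was highest in MmSCs after CTX (223 ± 13.9 CPM in FL and 227 ± 16.5 CPM in WT) and in cultured MmSCs at 2 h of Yoda1 (208 ± 74.2) and in their vehicle (188 ± 13.6). The other MmSC groups had means between 95.5 CPM (sedentary controls of EXT) and 149 CPM (Unstim). TA muscle had means between 48.7 CPM (WT, day 7) and 122 CPM (KO, day 3), and heart, liver and quadriceps between 22.0 CPM (WT quadriceps) and 41.7 CPM (FL heart, day 3). Piezo1 had its highest mean in the 0 h vehicle (115 ± 17.8 CPM) and its lowest in FL liver (2.99 ± 1.67 CPM). In quadriceps, the tissue with the most Ccng1, Trp53 was at its lowest (20.2, 18.9 and 27.3 CPM in FL and 19.9, 24.0 and 22.2 CPM in WT).

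Within the 15 MmSC groups, the group means of the members varied together only in part. On the log2(CPM + 1) scale, Mdm2 and Plk2 had a Pearson r of 0.93, Mdm2 and Gdf15 0.79, and Zmat3 and Trp53inp1 0.70, whereas Cdkn1a and Mdm2 had 0.47 and Cdkn1a and Btg2 0.078. Of the 45 pairs, 22 had a negative r, the lowest being Plk2 and Sesn1 (-0.84), Cdkn1a and Bbc3 (-0.74) and Mdm2 and Sesn1 (-0.73). Over the same 15 groups and 9954 genes with at least 10 CPM in a group, profiles among the 5 most like that of Cdkn1a were those of Ier5 (0.95), Baz1a (0.94), Zbtb21 (0.94) and Ttc21a (0.93), and those most like Mdm2 were Dnajb6 (0.98), Rai14 (0.98), Mmp3 (0.97), Utp15 (0.97) and Smad7 (0.97). These values describe 15 groups that share cohorts, culture and depth, and carry no test.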

How the data were processed

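RNA of 90 mouse libraries was sequenced; per the submitters' processing notes, the authors aligned reads with STAR 2.7.3a to mm10 and counted them per gene with featureCounts. The deposited table holds those raw counts for 55011 symbols; its strand setting and gene annotation, like the counter's version, were not given in the sources used here. Reads of overlapping or antisense genes may therefore be mixed. Columns were matched to samples by name, 12 of them only to a group (replicates a, b and c), and 0 were left unused. No replicate pair agreed within sampling noise (smallest chi-square per gene 2.75).

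From these counts, groups compared with each other were fitted together, in 11 separate fits (CTX and SED MmSCs shared 1, the 4 heart groups another), in R 4.3.3 with edgeR 4.0.16 (filterByExpr with a minimum count of 10, TMM, robust quasi-likelihood test) and p-values were adjusted by Benjamini-Hochberg over all genes tested; 0.05 was the threshold. CPM used TMM scaling within each cohort. For it, the sedentary, exercised and CTX MmSCs of Pdgfra-Cre mice were scaled as 1 set, while each fit was scaled on its own. Intervals are at 95% from the test's t distribution. DESeq2 1.42.0, RLE scaling, no filter, other sample subsets and a replicate block were alternatives. The pipeline was tested on simulated data. Coordinates and exon lengths came from GENCODE M21 (mm10). Figures used Python 3.11.15 with matplotlib 3.10.9. Members and gene lists were chosen with earlier results of these data known. In each comparison, every called member was named, otherwise those with the smallest p-values, and from each pathway list up to 3 called genes by p. Of the genes whose profiles were most like those of Cdkn1a and Mdm2, 1 is not reported here.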

Additional observations from a re-analysis of the deposited data

Results flagged for a closer look

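In KO TA muscle at day 1, 1 of 4 libraries stood apart for Cdkn1a, at 281.2 CPM against 315, 322 and 319.6 CPM in the others. Of 40 such sets checked, each 1 gene in 1 group of 4 libraries, this was the only one singled out, and chance singles out about 1 in 20. Sets of the same group share their libraries.

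The Ccng1 difference between KO and WT TA muscle was not the same on all days: at day 3 it was log2 -1.33 relative to that at day 1, by edgeR's joint test of genotype by day. Myofibre marker sums separated KO from WT on the same day, and their part was not tested.

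At 6 h of Yoda1, against 4 h, log2 differences were 0.52 for Ccng1, 0.40 for Plk2, 0.39 for Cdkn1a and 0.37 for Zmat3, the last resting on single libraries.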

How the results depend on the processing

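Of 562 alternatives to the members' calls, 509 kept direction and call, 53 lost the call and 0 reversed. Counts of members called that moved by over 1.5 times were as follows, and single calls lost otherwise stand beside their results. With no filter on low counts, EXT against SED gave 2 (Plk2 higher, Btg2 lower, against 1), Yoda1 4 h gave 1 (Ccng1, against 2), and 1 was called where 0 had been in FL after AEX (Plk2, higher), in FL against WT after CTX (Plk2, lower) and in FL heart at day 3 against uninjured (Trp53inp1, lower), and 2 in FL against WT heart at day 3 (Cdkn1a higher, Trp53inp1 lower). DESeq2 gave 2 for EXT and 1, Trp53inp1 lower, in both FL heart day 3 comparisons. A fit of the day 3 TA libraries alone gave 1 (Ccng1, against 2). The causes were not tested.

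With the replicate block, EXT gave 0 calls, Yoda1 2 h gave 1 (Cdkn1a, against 5), TA at day 3 gave 1 (Ccng1, against 2) and FL against WT heart at day 3 gave 1 (Trp53inp1). Replicate numbers are shared between groups but are not stated to mark animals or days, and correlations of same-numbered libraries' deviations ran from -0.16 to 0.20 over 88 pairs, with 0 of 30 group pairs above 0.1 throughout.

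Leaving out 1 library gave 0 to 1 calls for AEX, EXT, and FL against WT MmSCs at rest and after CTX, 2 to 5 for Yoda1 2 h, 1 to 2 for Yoda1 4 h and for TA at day 3, and 0 to 2 for FL against WT heart at day 3. Bbc3 had at most 173 counts in any library, and Gdf15 had 0 in quadriceps.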
